A study of Homo sapiens with 12 samples.

Results

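cis-Chlordane is an organochlorine insecticide whose known acute target is the chloride channel formed by receptors for gamma-aminobutyric acid (GABA). A set of 31 genes of inhibitory transmission was followed here, chosen by gene name from the 28278 rows of the count table. The set held 13 subunits of the GABA-A receptor and 3 rho subunits, 2 subunits of the GABA-B receptor, 4 subunits of the glycine receptor, and 9 genes for transmitter synthesis, transport and breakdown, the receptor scaffold and chloride cotransport. It is not a complete list of GABA-A subunits, and every share below refers to the listed subunits. Motor neuron cultures were made from 1 human embryonic stem cell line, WA09-Islet1-GFP, which carries GFP under control of the motor neuron transcription factor Islet1 and is otherwise labelled wild-type. The cultures received cis-chlordane or the DMSO solvent for 16 hours and were then sorted into GFP-positive (GFP+) and GFP-negative (GFP-) cells, giving control GFP+, treated GFP+, control GFP- and treated GFP- groups of 3 libraries each. The labels give a dose of 10 uM, while the study's methods give a higher one, so the dose behind the treated libraries is uncertain. The titles of the treated libraries also open with the word untreated, and the group was taken from the treatment entry. The study counts an independent thaw of stored cells as a biological replicate, so p-values measure the spread between such cultures of 1 line.

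GABA-A receptors are pentamers of related subunits around a chloride channel, usually with alpha, beta and gamma or delta subunits, and glycine receptors are built in the same way from alpha and beta subunits. The subunits present set where a receptor sits, how strongly it binds its transmitter and how it responds to drugs and toxicants. GABA-B receptors signal through G proteins and need both of their subunits. Whether opening a chloride channel inhibits or excites a neuron depends on its chloride gradient, which is set by the exporter SLC12A5 (KCC2) and the importer SLC12A2 (NKCC1) and changes as neurons mature.

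Libraries held 23414935 to 38347050 counts, and levels are given as CPM (counts scaled to library size) further scaled by the trimmed mean of M values (TMM). ISL1, the gene that drives the reporter, had 65.7 ± 3.12 CPM in control GFP+ cells and 2.57 ± 0.204 CPM in control GFP- cells (SD, n = 3). It had 12.0 ± 3.70 CPM in treated GFP+ cells and 0.548 ± 0.152 CPM in treated GFP- cells. The summed CPM of 8 motor neuron markers was 1717 to 2318 in control GFP+ libraries, 543.0 to 863.9 in treated GFP+ libraries, 273.8 to 301.0 in control GFP- libraries and 105.4 to 124.7 in treated GFP- libraries. By ISL1 and this sum, the GFP+ label held in both treatments, at a lower marker level after treatment. Of the 8 markers, 7 were higher and 1 was lower in control GFP+ than in control GFP- cells. Each of these differences was 2-fold or more with an adjusted p under 0.05 in the edgeR test given below. The treated fractions were not tested against each other. In sorted bulk samples, fewer cells of a type and less RNA per cell cannot be told apart.

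The sequences below show the part of the channel to which picrotoxin and cyclodiene insecticides such as chlordane are known to bind. They are given for GABRA3 and GLRA2, the most abundant channel subunits in control cells, and for GABRG3 and GABRQ. With treatment, GABRG3 rose in a way that held in all alternative fits in GFP- cells only, and GABRQ rose, short of 2-fold, in GFP+ cells only. GLRB is also given, since its codon at position 6, 1 of the 2 positions marked, differs from the rest. Each run is the reference coding sequence of the pore-lining segment and its flanks, 69 bases from hg38, with the codons at positions 2 and 6 of the segment in capitals. Positions were counted on the translated coding sequences of the 20 listed channel subunits. In 14 of them an identical stretch of 8 residues set the count, and the others were aligned as proteins to GLRA2. GABRA3 lies on the minus strand of chrX:152189892-152197651, GABRG3 on the plus strand of chr15:27520106-27527482, GABRQ on the plus strand of chrX:152650562-152651575 and GLRB on the plus strand of chr4:157143941-157152767, and in these 4 genes the run joins adjoining exons. GLRA2 lies on the plus strand of chrX:14609125-14609193, within exon 7.
GABRA3: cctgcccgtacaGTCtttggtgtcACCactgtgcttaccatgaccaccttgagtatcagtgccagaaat
GABRG3: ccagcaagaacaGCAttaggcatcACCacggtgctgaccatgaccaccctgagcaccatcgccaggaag
GABRQ: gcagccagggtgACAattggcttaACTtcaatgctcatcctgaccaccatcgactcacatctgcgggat
GLRA2: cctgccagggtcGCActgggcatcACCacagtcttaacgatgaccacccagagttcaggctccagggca
GLRB: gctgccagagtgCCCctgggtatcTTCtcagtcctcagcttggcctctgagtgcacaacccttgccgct
The codon at position 6 began with AC in 19 of the 20 genes, and GLRB, with TTC, was the exception. GLRB is the beta subunit of the glycine receptor, which is known for lowering the sensitivity of that receptor to picrotoxin. Compared base by base with GLRA2, GABRG3 matched at 46 of 69 bases, GABRA3 at 41, GABRQ at 37 and GLRB at 39.

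Of the 31 genes, 16 were expressed in at least 1 group, taken as 1 CPM or more in all 3 of its libraries, and 9 were expressed in all 4 groups. Control GFP- cells expressed 14 of them, control GFP+ cells 11, treated GFP- cells 12 and treated GFP+ cells 10. The alpha subunit GABRA4, the gamma subunit GABRG1, the pi subunit GABRP and the rho subunit GABRR3 had 0 counts in all 12 libraries. In a single library, 0 counts allow a level of up to 0.0794 to 0.129 CPM, by its depth (3 counts, counting error only). The limit from all 12 libraries together is lower. GABRA6 had 1 count in all, GABRA2 had 5 counts in a single library, and GABRB1 and GABRR1 reached at most 6 and 3 counts in any library. GABRB2, the other listed beta subunit, stayed between 0 and 1.06 CPM, so both listed beta subunits were scarce. In all, 22 genes passed the filter on low counts in at least 1 comparison and 18 in all 4.

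**Figure D1:**
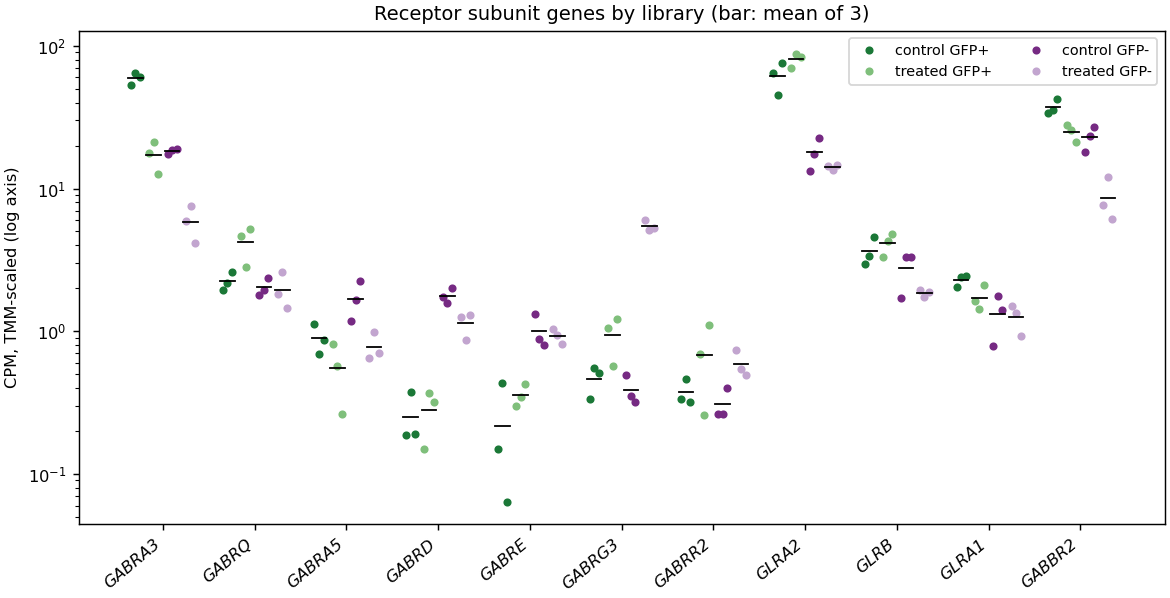
Levels of 11 receptor subunit genes in each of the 12 libraries, in TMM-scaled CPM on a log axis. Points are libraries and bars are means of 3. Of these genes, GABRA3 and GLRA2 stand highest in control GFP+ cells, and GABRG3 reaches 5.16 to 6.04 CPM in treated GFP- cells.

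GABRA3, the alpha3 subunit, had the highest mean level per kilobase of exon of the listed GABA-A subunits in all 4 groups. Its levels were 53.2, 64.2 and 60.3 CPM in the control GFP+ libraries and 17.4, 18.7 and 18.8 CPM in the control GFP- libraries. After cis-chlordane they were 17.7, 21.2 and 12.7 CPM in GFP+ cells and 5.91, 7.56 and 4.14 CPM in GFP- cells. In either fraction the highest treated value lay under the lowest control value, and the range of the treated GFP+ libraries overlapped that of the control GFP- libraries. Per kilobase of exon, GABRA3 made up 94.3 ± 0.281% of the summed level of the 16 listed GABA-A subunits in control GFP+ cells and 76.8 ± 2.65% in control GFP- cells. With treatment these shares were 77.4 ± 8.35% and 49.8 ± 5.77% (SD, n = 3). The sum itself went from 15.1 ± 1.38 to 5.30 ± 0.796 CPM per kilobase in GFP+ cells and from 5.74 ± 0.391 to 2.80 ± 0.509 CPM per kilobase in GFP- cells.

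Differences were tested with edgeR over all genes kept by the filter, and a gene counted as differentially expressed (DEG) if it changed by 2-fold or more and its adjusted p was under 0.05. In the control cells, GABRA3 was 3.01-fold higher in GFP+ than in GFP- cells, with a log2 fold change of 1.59 (SE 0.16, adjusted p = 3.6e-05). cis-Chlordane lowered it 3.29-fold in GFP+ cells, with a log2 fold change of -1.72 (SE 0.19, adjusted p = 2.7e-09), and 3.16-fold in GFP- cells, with a log2 fold change of -1.66 (SE 0.25, adjusted p = 0.0011). The responses of the fractions differed by -0.15 on the log2 scale (95% interval -0.75 to 0.46, adjusted p = 0.86). The summed CPM of 6 general neuron markers moved with it, from 11813 to 15209 in control GFP+ libraries to 5698 to 7528 in treated GFP+ libraries, and from 6251 to 6856 to 3692 to 4629 in GFP- libraries. All 6 markers were expressed in every group, and 2 of them, SNAP25 and SYT1, were higher in each treated library than in each control library of the same fraction. The part of cell composition in the GABRA3 result was not tested.

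**Figure D2:**
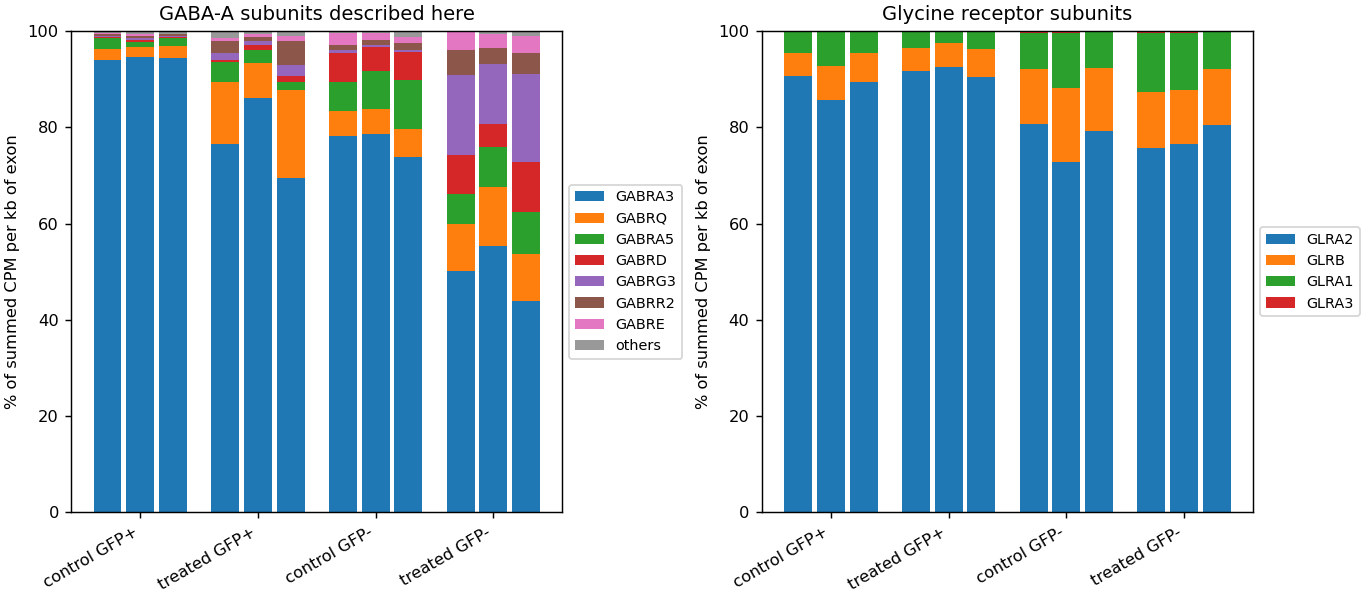
Share of each gene in the summed CPM per kilobase of exon, for the 16 listed GABA-A and rho subunits (left) and the 4 glycine receptor subunits (right), with 1 bar per library. GABRA3 holds 94.3% in control GFP+ and 49.8% in treated GFP- libraries on average, while GLRA2 stays between 72.8% and 92.5%.

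GABRG3, a gamma subunit of the kind that couples GABA-A receptors to benzodiazepine binding and synaptic clustering, moved the other way. It spans chr15:26971181-27541984 on the plus strand of hg38. In GFP- cells it had 0.493, 0.352 and 0.320 CPM in the control libraries and 6.04, 5.16 and 5.27 CPM in the treated libraries, which were 140, 142 and 149 counts. In CPM, which does not allow for gene length, GABRG3 thus lay above GABRA3 in treated GFP- replicates 1 and 3. The rise was 13.8-fold, with a log2 fold change of 3.78 (SE 0.33, adjusted p = 7.1e-05), and the groups were far apart. In GFP+ cells the values were 0.335, 0.550 and 0.512 CPM in controls and 1.05, 0.572 and 1.22 CPM after treatment, a log2 fold change of 1.08 (SE 0.45, adjusted p = 0.043). That smaller change passed in only 4 of 14 alternative fits, and it was lost when any of 5 of the 6 libraries was left out, with an adjusted p of 0.074 to 0.17. The difference between the fractions was itself significant, at -2.80 on the log2 scale for GFP+ minus GFP- (SE 0.53, adjusted p = 0.012). GABRG3 thereby went from 0.540 ± 0.165% to 15.8 ± 3.06% of the listed GABA-A subunits in GFP- cells. The antisense gene GABRG3-AS1 had 0 counts in all libraries.

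The theta subunit GABRQ was expressed at low levels in all 4 groups. It had 1.94, 2.17 and 2.59 CPM in control GFP+ and 4.65, 2.81 and 5.22 CPM in treated GFP+ libraries, all of them above the controls. Its 1.98-fold rise passed the test but fell just short of the fold limit, with a log2 fold change of 0.99 (SE 0.29, adjusted p = 0.0051), and it reached that limit in 4 of 14 alternative fits. In GFP- cells the log2 fold change was -0.07 (95% interval -0.73 to 0.60), and the difference between fractions of 0.97 did not pass (adjusted p = 0.29).

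The remaining listed GABA-A subunits were scarce. GABRD, the delta subunit of extrasynaptic receptors, had 1.74, 1.59 and 2.00 CPM in control GFP- libraries and 0.186, 0.376 and 0.192 CPM in control GFP+ libraries, a log2 fold change of -2.88 for GFP+ over GFP- (SE 0.43, adjusted p = 0.00051). GABRE, the epsilon subunit, also lay lower in GFP+ cells, at 0.149, 0.434 and 0.064 CPM against 1.31, 0.881 and 0.799 CPM (log2 fold change -2.26, SE 0.60, adjusted p = 0.013). The GABRE call rests on few counts and was lost without control GFP+ replicate 1 (adjusted p = 0.064) or replicate 3 (adjusted p = 0.052), while without control GFP+ replicate 2 the log2 fold change was -3.27. Both subunits were thus scarcer in the sorted motor neurons than in the other cells of the cultures. Neither passed a test of treatment, and GABRA5 (log2 fold change -1.12 in GFP- cells, adjusted p = 0.052), GABRB2 (-0.74 in GFP+ cells, adjusted p = 0.18) and the rho subunit GABRR2 (0.94 in GFP+ and 0.92 in GFP- cells, adjusted p = 0.12 and 0.16) did not pass either. GABRA5 passed in GFP- cells when control GFP- replicate 1 was left out (log2 fold change -1.32, adjusted p = 0.031) and with the GC trend removed, which takes out the course of the response with base composition (-1.15, adjusted p = 0.045). In GFP+ cells GABRR2 passed without treated GFP+ replicate 2 (1.31, adjusted p = 0.038), and GABRB2 passed with the GC trend removed (-1.21, adjusted p = 0.029), also with a replicate block, a term for the replicate number (-1.20, adjusted p = 0.033). Between control fractions GABRA5 passed without control GFP- replicate 1 (-1.24, adjusted p = 0.027) and GABRB2 without control GFP- replicate 3 (1.73, adjusted p = 0.027).

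GLRA2, the alpha2 subunit typical of embryonic glycine receptors, was the other abundant channel subunit. It had 64.9, 45.3 and 75.3 CPM in control GFP+ libraries and 13.3, 17.6 and 22.7 CPM in control GFP- libraries, without overlap. The GFP+ level was 3.21-fold higher, with a log2 fold change of 1.68 (SE 0.25, adjusted p = 0.00054). Treated libraries had 70.4, 88.1 and 83.3 CPM in GFP+ and 14.4, 13.5 and 14.7 CPM in GFP- cells. In GFP+ cells this was a 1.37-fold rise in which treated and control libraries overlapped (log2 fold change 0.45, SE 0.18, adjusted p = 0.034), and in GFP- cells the log2 fold change was -0.35 (SE 0.22, adjusted p = 0.25). The rise was lost without treated GFP+ replicate 2 (adjusted p = 0.11), control GFP+ replicate 1 (0.056) or control GFP+ replicate 2 (0.25), with DESeq2 (0.054), in the fit of all 12 libraries (0.15), and with the GC trend removed, where the log2 fold change was 0.14 (adjusted p = 0.46) and, with a replicate block as well, 0.15 (adjusted p = 0.48). No fall of GLRA2 was thus detected in either fraction, where GABRA3 fell in both. The difference of its responses between fractions, 0.72 on the log2 scale, did not pass (adjusted p = 0.24). Its exons share 150 bases with FANCB on the opposite strand.

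GLRB, the beta subunit that anchors glycine receptors to gephyrin, had 2.98, 3.39 and 4.57 CPM in control GFP+ libraries and 1.71, 3.29 and 3.32 CPM in control GFP- libraries. GLRA1, the alpha1 subunit of adult glycine receptors, had 2.05, 2.40 and 2.43 CPM and 0.788, 1.76 and 1.40 CPM. Per kilobase, control GFP+ cells held 16.2 ± 3.99 of GLRA2, 1.08 ± 0.244 of GLRB and 0.939 ± 0.0870 of GLRA1 (SD, n = 3), of which the last 2 did not differ beyond their spread. GLRA2 made up 88.6 ± 2.65% of the summed glycine receptor level in control GFP+, 91.5 ± 1.04% in treated GFP+, 77.6 ± 4.16% in control GFP- and 77.6 ± 2.55% in treated GFP- cells. GLRB and GLRA1 passed no test in any comparison, and GLRA3 stayed at or below 11 counts. The 95% interval of the GLRB response was -0.27 to 0.78 in GFP+ cells and -1.27 to 0.08 in GFP- cells on the log2 scale.

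Both GABA-B subunits were measured, at very different levels. GABBR2, which couples the receptor to its G protein, had 34.0, 35.4 and 42.4 CPM in control GFP+ and 27.7, 25.9 and 21.2 CPM in treated GFP+ libraries. In GFP- cells it had 18.0, 23.5 and 27.1 CPM without and 7.68, 12.0 and 6.16 CPM with treatment. It fell in both fractions, with log2 fold changes of -0.51 (SE 0.18, adjusted p = 0.018) in GFP+ and -1.43 (SE 0.28, adjusted p = 0.0041) in GFP- cells, and was a DEG in the latter. The smaller change in GFP+ cells was lost without treated GFP+ replicate 3 (adjusted p = 0.064) or control GFP+ replicate 3 (adjusted p = 0.083), with library size alone (-0.41, adjusted p = 0.077), with the GC trend removed without (-0.34, adjusted p = 0.081) or with a replicate block (-0.33, adjusted p = 0.12), and in the fit of all 12 libraries (-0.58, adjusted p = 0.050). The difference of 0.83 between these responses did not pass (adjusted p = 0.21), but it passed with a term for each replicate number and treatment (0.86, adjusted p = 0.037). GABBR1, the transmitter-binding subunit, had 0.708, 0.550 and 0.544 CPM in control GFP+ and 6.75, 0.916 and 0.265 CPM in treated GFP+ libraries. Its log2 fold change of 2.19 (SE 0.59, adjusted p = 0.0022) rested on treated GFP+ replicate 1, without which it was 0.03 (adjusted p = 0.97), and the groups overlapped. It was also lost without control GFP+ replicate 2 (log2 fold change 2.12, adjusted p = 0.058), with DESeq2 (adjusted p = 0.12), in the fit of all 12 libraries (adjusted p = 0.11) and with a replicate block (1.31, adjusted p = 0.061). Of the 45 pieces of 100 bases into which its exons were divided, 26 also occur on 7 alternate contigs of hg38, as is the case for none of the other 30 genes, and its exons share 722 bases with UBD on the same strand. The part of these copies in the low and uneven counts was not tested.

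**Figure D3:**
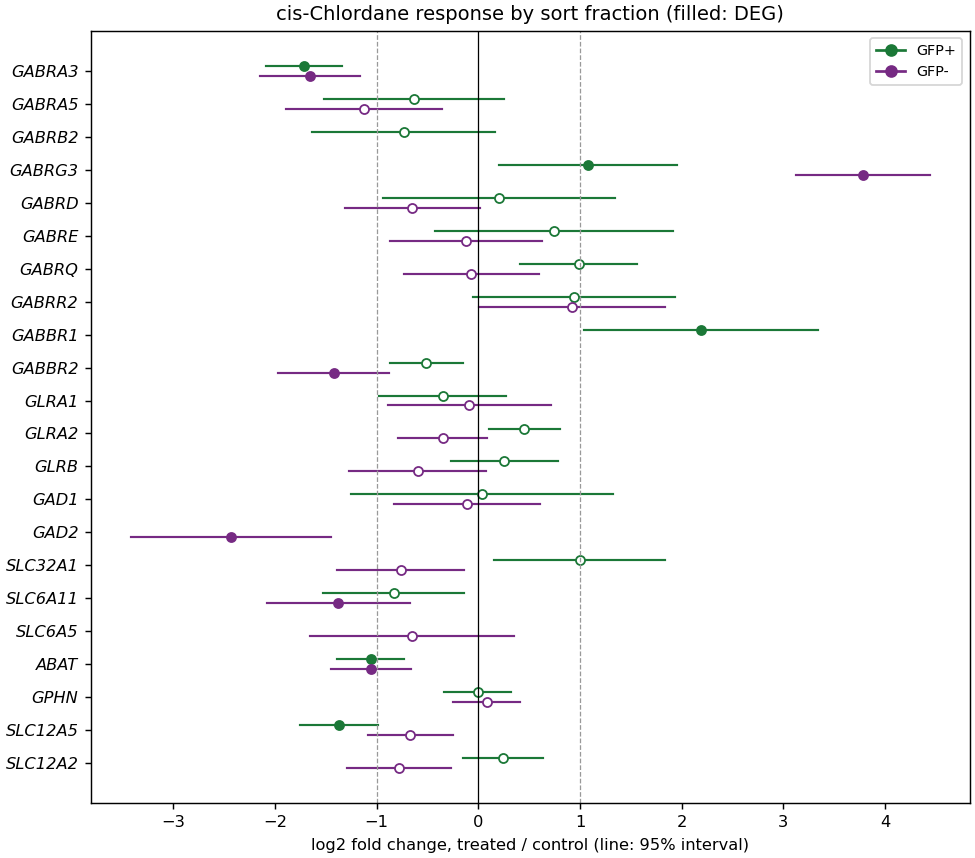
Log2 fold change of treated over control libraries for the genes tested in GFP+ (green) and GFP- (purple) cells, with lines for the 95% interval. Filled points are DEGs. GABRA3 and ABAT lie below 0 in both fractions, and GABRG3 reaches 3.78 in GFP- cells.

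Over the whole set, 20 genes were tested for treatment in GFP+ cells, of which 4 rose and 5 fell at an adjusted p under 0.05, while 26.5% of all 15333 genes tested rose and 24.4% fell. The DEGs were 2 higher, GABRG3 and GABBR1, and 3 lower, GABRA3, ABAT and SLC12A5, against 12.8% and 11.2% of all genes. The higher calls are insecure, since DESeq2 made 0 of them, as did the fits without treated GFP+ replicate 1 or control GFP+ replicate 2, while the fit without treated GFP+ replicate 2 made 5 and those without treated GFP+ replicate 3 or control GFP+ replicate 1 made 1. In GFP- cells, 20 genes were tested, of which 1 rose and 7 fell, against 15.3% and 16.2% of all 15513 genes. Of these, GABRG3 was a DEG upward and 5 genes were DEGs downward (GABRA3, GABBR2, GAD2, SLC6A11 and ABAT), against 8.59% and 9.75%. Without treated GFP- replicate 3, 3 were DEGs downward. The median log2 fold change of the tested genes was 0.12 in GFP+ cells, with 0.03 over all genes, and -0.65 in GFP- cells, with -0.01 over all genes. In GFP+ cells the shares were close to those of all genes, and in GFP- cells more of the tested genes fell than rose. The log2 response also ran with base composition over all genes, with medians from 0.46 in the lowest to -0.42 in the highest of 4 equal classes of GC content in GFP+ cells, and from 0.21 to -0.27 in GFP- cells. With that trend removed, 3 genes of the set were DEGs upward and 3 downward in GFP+ cells, and 1 upward and 6 downward in GFP- cells.

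Between the control fractions, 22 genes were tested, of which 5 were higher and 7 lower in GFP+ cells, against 17.1% and 23.1% of all 15404 genes. The DEGs were 2 higher, GABRA3 and GLRA2, and 7 lower (GABRD, GABRE, GAD1, GAD2, SLC32A1, SLC6A5 and SLC12A2), against 7.47% and 15.3%. Without control GFP- replicate 3, 4 were DEGs higher. Of the 22 genes tested for a difference of response between fractions, 0 were higher and 1 was lower, GABRG3, against 0.968% and 1.22% of all 16226 genes. At an unadjusted p under 0.05, 6 of the 22 were higher and 2 lower, and DESeq2 called 1 higher, SLC32A1 (log2 difference 1.73, adjusted p = 0.037).

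The genes that make and load the transmitters marked GFP- cells. GAD1, a glutamate decarboxylase that makes GABA, had 1.48, 1.12 and 2.16 CPM in control GFP- and 0.149, 0.492 and 0.064 CPM in control GFP+ libraries. Its log2 fold change for GFP+ over GFP- was -2.80 (SE 0.63, adjusted p = 0.0054), and -3.93 without control GFP+ replicate 2. GAD2, the other decarboxylase, had 1.44, 0.734 and 1.12 CPM against 0.186, 0.0579 and 0.0960 CPM, a log2 fold change of -3.38 (SE 0.56, adjusted p = 0.00096). SLC32A1, the vesicular transporter for GABA and glycine, had 2.50, 2.79 and 2.56 CPM against 0.373, 0.724 and 0.672 CPM, a log2 fold change of -2.23 (SE 0.36, adjusted p = 0.00083). For all 3 genes the fractions did not overlap, and the genes for making and loading GABA lay higher in GFP- cells. SLC6A5, the neuronal glycine transporter, followed the same direction at 0.499 to 0.690 CPM in control GFP- libraries (log2 fold change -1.46, SE 0.48, adjusted p = 0.033), but the call was lost in 9 of 14 alternative fits, including that without each of the 6 libraries in turn (adjusted p 0.052 to 0.13).

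Treatment lowered GAD2 in GFP- cells to 0.173, 0.291 and 0.142 CPM, a log2 fold change of -2.43 (SE 0.50, adjusted p = 0.0054), while GAD1 stayed at 1.47, 1.24 and 1.73 CPM (log2 fold change -0.11, 95% interval -0.83 to 0.60). SLC32A1 had 1.12, 1.74 and 1.80 CPM in treated GFP- and 1.17, 0.744 and 1.48 CPM in treated GFP+ libraries, and neither change passed (log2 fold change -0.76, adjusted p = 0.096, and 0.99, adjusted p = 0.051). In GFP+ cells it passed without treated GFP+ replicate 2 (log2 fold change 1.21, adjusted p = 0.028), with library size alone (1.11, adjusted p = 0.034) and with the GC trend removed (1.41, adjusted p = 0.012). The summed CPM of 10 transcription factors of spinal inhibitory interneurons was 26.3 to 29.3 in control GFP-, 7.25 to 7.51 in treated GFP-, 4.83 to 5.56 in control GFP+ and 1.72 to 2.73 in treated GFP+ libraries. Of the 10 factors, 6 were expressed in control GFP- cells, 2 in control GFP+ cells, 2 in treated GFP- cells and 0 in treated GFP+ cells, and GATA2 carried 13.0 to 14.5 CPM of the control GFP- sum. No factor was at 0 in all libraries, and their sum was lower after treatment in both fractions, while of GAD1, GAD2 and SLC32A1 only GAD2 passed the test of treatment in GFP- cells. Other marker sums were also lower in treated GFP- cells, with 27.9 to 31.4 CPM in control and 3.93 to 8.51 CPM in treated libraries for 4 excitatory interneuron genes, 426.4 to 554.9 and 137.9 to 182.0 CPM for 4 genes of cycling cells, and 144.5 to 256.2 and 47.4 to 70.9 CPM for 5 genes of astrocytes or radial glia. Of the astrocyte or radial glia genes, 3 were tested for treatment in GFP- cells, where 1 was a DEG upward and 2 were DEGs downward. The sum of 7 neural progenitor genes was 5894 to 7834 CPM in control and 7218 to 8271 CPM in treated GFP- libraries. Most of its tested genes did not rise. Of 6 tested in GFP- cells, 1 rose and 3 fell at an adjusted p under 0.05, and 2 were DEGs downward. The part of these cell types in the fall of GAD2 was not tested.

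SLC6A11 (GAT3), which takes up GABA, fell in both fractions. It had 2.27, 1.80 and 1.86 CPM in control GFP+ and 1.44, 0.916 and 0.821 CPM in treated GFP+ libraries (log2 fold change -0.83, SE 0.35, adjusted p = 0.049), and this change was lost in 9 of 14 alternative fits, among them those without any of 5 of the 6 libraries (adjusted p 0.065 to 0.15). In GFP- cells it went from 3.09, 2.26 and 3.08 CPM to 1.29, 1.27 and 0.708 CPM (log2 fold change -1.38, SE 0.36, adjusted p = 0.016), a call lost without treated GFP- replicate 3 (log2 fold change -1.16, adjusted p = 0.056). ABAT, the transaminase that breaks GABA down, was far more abundant. It fell from 86.7, 91.5 and 116 CPM to 43.0, 43.5 and 48.1 CPM in GFP+ cells and from 75.9, 104 and 110 CPM to 42.9, 56.9 and 41.2 CPM in GFP- cells. Its log2 fold change was -1.06 in both fractions (SE 0.17 and 0.20, adjusted p = 2.9e-06 and 0.0035), close to the limit of 2-fold. In GFP+ cells ABAT fell under that limit, with the test still passed, in 4 of 14 alternative fits. These were the fits without control GFP+ replicate 3 (-0.93), with library size alone (-0.95), and with the GC trend removed, without or with a replicate block. In GFP- cells it did so without control GFP- replicate 3 (-0.95) or treated GFP- replicate 3 (-0.98). Its exons share 152 bases with TMEM186 on the opposite strand.

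**Figure D4:**
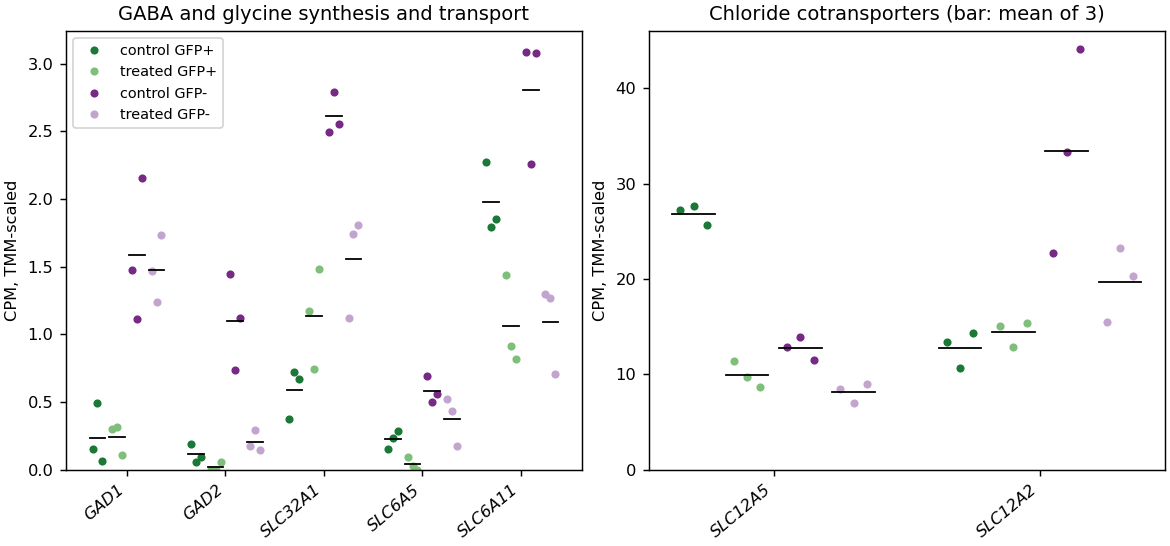
CPM in each library for 5 genes of transmitter synthesis and transport (left) and the chloride cotransporters (right), with the axis from 0. Points are libraries and bars means of 3. GAD1, GAD2 and SLC32A1 are highest in control GFP- cells, and SLC12A5 falls from 25.7 to 27.6 CPM to 8.69 to 11.3 CPM in GFP+ cells.

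GPHN, which encodes the scaffold gephyrin that holds glycine receptors and many GABA-A receptors at synapses, did not pass the test of treatment in either fraction. It had 50.7, 50.1 and 61.9 CPM in control GFP+ and 51.8, 53.8 and 48.8 CPM in treated GFP+ libraries. The log2 fold change with treatment was -0.01 in GFP+ cells (95% interval -0.34 to 0.32) and 0.08 in GFP- cells (95% interval -0.25 to 0.41). It was higher in control GFP+ than in control GFP- cells, which had 30.9, 31.3 and 34.6 CPM (log2 fold change 0.64, SE 0.16, adjusted p = 0.0097).

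The chloride cotransporters separated the fractions in opposite directions. SLC12A5, the exporter KCC2 of mature neurons, had 27.2, 27.6 and 25.7 CPM in control GFP+ and 12.8, 13.9 and 11.5 CPM in control GFP- libraries (log2 fold change 0.97, SE 0.17, adjusted p = 0.0013), just under the fold limit. SLC12A2, the importer NKCC1, had 13.4, 10.6 and 14.3 CPM and 22.8, 33.3 and 44.1 CPM (log2 fold change -1.49, SE 0.26, adjusted p = 0.0013). With treatment, SLC12A5 fell to 11.3, 9.70 and 8.69 CPM in GFP+ cells, a log2 fold change of -1.37 (SE 0.19, adjusted p = 3.5e-07). The call held in all 14 alternative fits, where the log2 fold change ranged from -1.49 to -1.05. Without 1 library at a time the range was -1.49 to -1.28, so the weakest value came from a change of method. In GFP- cells it fell to 8.42, 6.98 and 8.99 CPM (log2 fold change -0.67, SE 0.21, adjusted p = 0.038), a change lost without any of the 3 treated libraries or control GFP- replicate 2 (adjusted p 0.050 to 0.16), with no filter (0.053), with the GC trend removed (0.086) and with a replicate block (0.070). SLC12A2 had 15.1, 12.9 and 15.4 CPM in treated GFP+ cells (log2 fold change 0.24, SE 0.20, adjusted p = 0.32) and fell in GFP- cells to 15.5, 23.2 and 20.3 CPM, overlapping the controls (log2 fold change -0.78, SE 0.26, adjusted p = 0.045). The latter was lost in the fits without each of the 3 treated libraries or control GFP- replicate 2 or 3 (adjusted p 0.056 to 0.19) and with library size alone (0.051). Treated GFP+ cells thus held less exporter transcript, with no detected change of the importer.

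Per kilobase of exon, the ratio of SLC12A5 to SLC12A2 was 2.42, 3.11 and 2.14 in control GFP+ libraries and 0.899, 0.903 and 0.674 in treated GFP+ libraries. In GFP- cells it was 0.673, 0.499 and 0.311 without and 0.651, 0.359 and 0.528 with treatment. The ratio was above 1 in each control GFP+ library and below 1 in the other 9 libraries, a description with no test. These ratios leave the trend with GC content in place. SLC12A5, with 58.2% GC, lies in the highest class of GC content and SLC12A2, with 41.2%, in the lowest. The median responses of these classes in GFP+ cells were -0.42 and 0.46. Whether the treated GFP+ libraries stay below 1 with that trend removed was not tested. The responses of neither gene differed between fractions at the threshold (differences of -0.79 and 0.94 on the log2 scale, adjusted p = 0.11 and 0.15), although SLC12A2 passed without control GFP- replicate 1 (1.18, adjusted p = 0.040) and SLC12A5 with a term for each replicate number and treatment (-0.79, adjusted p = 0.041). The exons of SLC12A5 share 197 bases with SLC12A5-AS1 on the opposite strand. The summed level of the general neuron markers moved in the same direction as SLC12A5, as given above for GABRA3, while SNAP25 and SYT1 were higher after treatment. The part of cell composition in the fall of SLC12A5 was not tested.

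A wider list of 43 genes for receptor assembly, transmitter metabolism and chloride handling was read beside the set. In GFP+ cells 42 were tested, of which 6 were DEGs upward and 6 downward, against 12.8% and 11.2% of all genes, and in GFP- cells 41 were tested, of which 6 were DEGs upward and 8 downward, against 8.59% and 9.75%. Between control fractions 5 of 42 were DEGs higher and 4 lower in GFP+ cells, against 7.47% and 15.3% of all genes, and 0 of 42 passed the test of a difference in response, against 4 at an unadjusted p under 0.05. DESeq2 gave 0 such calls. Their median log2 fold change with treatment was 0.05 in GFP+ and 0.00 in GFP- cells.

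The largest rises within this list were those of SLC6A9, SHMT2 and CLCN3 in both fractions. SLC6A9 (GLYT1), which takes up glycine, went from 9.77, 11.1 and 8.09 CPM to 85.2, 78.2 and 57.8 CPM in GFP+ cells and from 17.2, 15.9 and 14.3 CPM to 109, 127 and 110 CPM in GFP- cells. Its log2 fold changes were 3.00 (SE 0.20, adjusted p = 1.0e-14) and 2.85 (SE 0.17, adjusted p = 1.1e-05). SHMT2, the mitochondrial enzyme that interconverts serine and glycine, rose with log2 fold changes of 2.09 (SE 0.17, adjusted p = 2.0e-12) and 2.58 (SE 0.17, adjusted p = 1.8e-05). CLCN3, a chloride and proton exchanger of endosomes, rose with log2 fold changes of 2.23 (SE 0.17, adjusted p = 5.1e-13) and 1.95 (SE 0.23, adjusted p = 0.00029). Other genes of glycine and serine metabolism in the list did not rise, as SHMT1, GLDC and AMT fell in both fractions (log2 fold changes of -0.87, -0.91 and -0.63 in GFP+ and -1.53, -0.81 and -0.90 in GFP- cells) and GCSH passed no test of treatment. The largest falls in the list were those of MDGA1, SLITRK3 and SHISA7. MDGA1, which binds neuroligin-2, fell with log2 fold changes of -2.26 in GFP+ and -1.68 in GFP- cells (adjusted p = 6.0e-13 and 0.0010). SLITRK3, an adhesion protein of inhibitory synapses, had -1.95 and -2.66 (adjusted p = 3.2e-05 and 0.0013), and SHISA7, an auxiliary subunit of GABA-A receptors, had -1.69 in both (adjusted p = 1.2e-08 and 0.0015).

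Between control fractions, the largest differences upward in GFP+ cells were in KCTD16, an auxiliary subunit of GABA-B receptors (log2 fold change 2.17, adjusted p = 0.0017), PLCL1, which binds GABA-A receptors and GABARAP (2.05, adjusted p = 0.00032), and IQSEC3, a gephyrin-binding exchange factor (1.17, adjusted p = 0.00036). The largest downward were in SHMT1, the cytosolic counterpart of SHMT2 (-2.21, adjusted p = 1.9e-05), carbonic anhydrase CA2 (-2.02, adjusted p = 0.00058) and the potassium-chloride cotransporter SLC12A4 (-1.46, adjusted p = 9.9e-05). KCTD16 had 3.91, 4.49 and 4.03 CPM in control GFP+ and 0.460, 0.793 and 1.32 CPM in control GFP- libraries. GABBR2 itself had a log2 fold change of 0.60 in the same direction (SE 0.20, adjusted p = 0.038), which was lost in the fits without 5 of the 6 libraries (adjusted p 0.064 to 0.14).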

How the data were processed

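RNA from 12 sorted samples was sequenced from a stranded mRNA library kit as single-end reads. Per the labels and the study's methods, HISAT2 and an Ensembl annotation were used by the authors to map reads to hg38, and the submitters' processing notes name featureCounts. The deposited values are raw counts per gene, and how reads with several matches or the strand were counted is not given in the sources used here. Of the per-sample columns, 0 were left unused. The genes and lists were chosen with earlier results of these data known.

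Counts were tested with edgeR 4.0.16 in R 4.3.3 (TMM, filterByExpr with a minimum count of 10 and total of 15, quasi-likelihood F-test, Benjamini-Hochberg adjustment over all genes tested) within each sort fraction, between control fractions, and for the interaction, whose calls need no minimum fold. The study itself used DESeq2, which was run as an alternative (version 1.42.0). The fits were tested on simulated data. The reported fits leave the trend with GC content in place.

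Levels per kilobase used the union of exons in GENCODE 44, which matched 25763 of 28278 symbols and all 31 genes. Groups with no library above 3 counts were taken as at the floor. Between replicates of a group, 0 pairs of libraries were identical. Of the 43 other pathway genes, up to 3 DEGs with the largest change per direction and comparison are named. With 3 libraries a group, no permutation test of a single gene can pass, so none was run.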

Additional observations from a re-analysis of the deposited data

Results flagged for a closer look

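GABRG3 was picked out because its response to cis-chlordane differed between the sort fractions by the test of the interaction of treatment and fraction. The log2 response was lower in GFP+ than in GFP- cells by a difference of -2.80 (SE 0.53, adjusted p = 0.012 with edgeR), and all 3 treated GFP- libraries lay above all 3 treated GFP+ libraries. The difference ranged from -2.98 to -2.54 over 19 alternative fits and passed in each of them.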

How the results depend on the processing

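Each comparison was refitted with DESeq2, RLE scaling, library size alone, no filter, removal of the trend with GC content, a replicate block with and without that removal, all 12 libraries together, and without each library in turn. The calls of GABRA3 in all 3 comparisons, of GABRG3, GABBR2 and GAD2 in GFP- cells, of SLC12A5 in GFP+ cells, and of GLRA2, GABRD, GAD1, GAD2, SLC32A1 and SLC12A2 between fractions held in all 14 alternative fits. Scaling by library size alone moved the median log2 fold change of all genes from 0.03 to 0.14 in GFP+ cells and from -0.05 to 0.21 for the difference between fractions. In GFP+ cells, the number of the 31 genes called higher was 0 with DESeq2 and with a replicate block, 4 with library size alone, 1 with no filter, 1 with all 12 libraries and 1 with the replicate block and GC trend removed.

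Without 1 library at a time, the number of the 31 genes called was 0 to 5 higher in GFP+ cells, 3 to 6 lower in GFP- cells, 2 to 4 higher between fractions, and 0 to 1 higher for the difference of responses, where all genes called ranged from 68 to 212 higher and from 47 to 202 lower. Log2 fold changes that crossed 0 ranged in GFP+ cells from -0.41 to 1.22 for GAD1, -0.06 to 0.62 for GABRD and -0.07 to 0.09 for GPHN. In GFP- cells they ranged from -0.31 to 0.17 for GAD1, -0.33 to 0.10 for GABRQ, -0.35 to 0.19 for GLRA1 and -0.26 to 0.13 for GABRE, and between fractions from -0.24 to 0.04 for ABAT, -0.09 to 0.17 for GABRQ and -0.83 to 2.56 for GABBR1. The difference of responses ranged from -0.19 to 0.10 for ABAT, -0.44 to 0.33 for GABRR2, -2.25 to 0.69 for GAD2, -0.36 to 1.28 for GAD1, -0.32 to 0.19 for GABRA3 and -0.24 to 0.02 for GPHN.

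Correlations of the deviations of same-numbered libraries were -0.046 to 0.271 between treated and control libraries over 16226 genes, 0.153 to 0.317 between treated fractions and 0.073 to 0.256 between control fractions. The labels give both fractions of a treatment the same replicate numbers but do not say that these mark shared cultures. As not every pair was over 0.1 either, the samples were not taken as paired. If the fractions were sorted from shared cultures, the unpaired fits leave that link out. The replicate block for the difference between fractions was a term for each replicate number and treatment. With it, the difference called 519 genes higher and 745 lower, against 157 and 198 without it. Of the 31 genes, 1 was higher, GABBR2 (0.86, adjusted p = 0.037), and 2 were lower, GABRG3 and SLC12A5 (-0.79, adjusted p = 0.041). With the block and the GC trend removed, the difference called 572 and 621 genes, with 2 of the 31 higher, GABBR2 and SLC32A1, and 1 of the 43 other genes lower. DESeq2 called 411 genes higher and 378 lower, with 1 of the 31 higher, and library size alone called 266 and 84.

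Directions turned for small changes that did not pass. In GFP+ cells these were GPHN (0.10 with library size alone, 0.06 with the GC trend removed, 0.07 with the block as well), GLRB (-0.21 and -0.20 with the GC trend removed, without and with the block), SLC12A2 (-0.08 in both) and GAD1 (-0.01 with all 12 libraries). In GFP- cells GLRA1 had 0.01 with the block and the GC trend removed. Between fractions GABBR1 had 0.64 with the block and 0.73 with the GC trend removed as well, and ABAT had 0.02 with all 12 libraries. For the difference of responses, library size alone gave 0.17 for ABAT, 0.10 for GABRA3, 0.21 for GABRR2 and 0.08 for GPHN, and DESeq2 gave -0.07 for GAD2. With the longest transcript as length, GABRA3 held 71.5% in control GFP- and 93.7% in control GFP+ cells. The causes of these shifts were not tested, and genes under about 1 CPM are limited by depth.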
